A study of Canis lupus familiaris with 45 samples.

Results

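FOS, JUNB, IER2 and DUSP1 are 4 immediate early genes, which cells transcribe within minutes of a stimulus without first making new protein. All probe sets on a canine oligonucleotide array whose annotation carries 1 of these symbols alone were taken, whatever their result. Each gene had 1 probe set, and the 4 genes are 4 of the 6540 genes that the array names by a single symbol. The array thus gives no second reading of any of the 4. Left ventricular tissue through the full wall was collected from 15 male, age-matched dogs in 5 groups of 3. The Day-0 dogs were unpaced. The other groups were paced rapidly from the right ventricle at 240 pulses per minute by an implanted VVI pacemaker, and are named by how long. Day-3 dogs were paced for 3 days, Week-1 dogs for 1 week and Week-2 dogs for 2 weeks, and End-stage dogs for 3 to 4 weeks. Pacing began 1 to 2 days after the pacemaker was implanted through the chest wall, and whether Day-0 dogs had that operation is not given in the sources used here. End-stage heart failure was established by haemodynamic measurement. Hearts were removed through the chest wall, put in ice-cold saline and frozen. Every tissue sample gave 3 separate RNA isolations, and with 1 array per isolation there were 45 arrays. Groups are compared over dogs, and a dog is the mean of its 3 arrays.

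FOS and JUNB encode subunits of AP-1, a transcription factor that works as a pair of FOS-family and JUN-family proteins and binds the promoters and enhancers of many genes. IER2 encodes a short-lived nuclear protein that takes part in transcriptional regulation. DUSP1 encodes a phosphatase that removes phosphates from MAP kinases, the enzymes whose activity switches on many immediate early genes, and so acts as feedback on them. In the heart these genes are known to respond to stretch, adrenergic stimulation and reperfusion, usually for a short time.

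On the dog assembly UU_Cfam_GSD_1.0, RefSeq places FOS on chromosome 8 at 48649028 to 48652435 and DUSP1 on chromosome 4 at 40474741 to 40477792. JUNB lies on chromosome 20 at 49757409 to 49759245 and IER2 on the same chromosome at 49469195 to 49471051. The interval between IER2 and JUNB is 286 kb and holds 19 protein-coding genes. The probe sets are 1588592_at for FOS, 1602953_at for JUNB, 1585940_at for IER2 and 1586919_at for DUSP1. JUNB was matched to the RefSeq table by its symbol, because the gene number in the array annotation differs from that in the table.

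The deposited values are linear signals, and all levels and differences below are on the log2 scale unless a signal is named. A level of 1 probe set cannot be set against that of another. The lowest 40% of probe sets by mean level, those under a signal of 22.8, were left out of all tests, which kept 14302 probe sets and all 4 of these genes. The median signal of an array was 33.3 to 48.6. The 3-prime over 5-prime ratio of the GAPDH control, a sign of RNA quality, was 0.891 to 0.961 in Week-2 dogs and 0.932 to 0.983 in Day-0 dogs. The same ratio of the actin control was 0.175 to 0.267 in Week-2 dogs and 0.121 to 0.227 in Day-0 dogs. The arrays of End-stage dog 1 and those of Week-1 dog 1 did not separate cleanly. Of their 6 arrays, 3 correlated best with another array of the same dog and 2 with an array of the other of the pair. The remaining array, isolation 1 of End-stage dog 1, correlated best with an array of Week-2 dog 1. In the other dogs, 36 of 39 arrays matched their own dog. The exceptions were isolation 3 of Week-1 dog 2 and isolation 2 of Week-2 dogs 2 and 3. Comparisons and correlations that use Week-1 dog 1 or End-stage dog 1 are therefore given with and without these 2 dogs.

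All 4 genes had their highest group mean in the Week-2 dogs, and no comparison of groups passed the adjusted threshold for any of them. The Week-2 mean of FOS exceeded the Day-0 mean 18.0-fold, that of IER2 3.39-fold, that of JUNB 2.51-fold and that of DUSP1 2.13-fold. Dogs of the same group differed by large amounts, most of all in FOS. Its 3 unpaced dogs covered a 15.1-fold range of signal with dim readings held at the filter level, and 36.1-fold as deposited. In bulk tissue, a change in the number of cells that hold a transcript and a change in transcript per cell cannot be told apart.

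FOS, the AP-1 subunit with the widest range, had log2 levels of 6.50, 3.25 and 8.42 in the 3 Day-0 dogs. It had 3.86, 8.60 and 7.36 in Day-3 dogs and 6.52, 5.87 and 4.90 in Week-1 dogs. The Week-2 dogs had 11.04, 8.14 and 11.51, and the End-stage dogs 6.66, 6.21 and 8.98. Week-2 dogs 1 and 3 were the 2 highest of all 15, while Week-2 dog 2 lay below Day-0 dog 3, Day-3 dog 2 and End-stage dog 3. Over the 15 dogs the signal was highest in Week-2 dog 3 at 2916 and lowest in Day-0 dog 2 at 9.50, which is under the filter level. The range was 128-fold with dim readings held at that level and 307-fold as deposited. The rank of this range among probe sets depended on that choice, at 1st with the floor and 3rd without.

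Single arrays of FOS kept mostly to their dog. The 3 arrays of Week-2 dog 3 read 11.44, 11.38 and 11.71, and those of Week-2 dog 1 read 11.31, 10.94 and 10.86. The 3 arrays of Day-0 dog 3 read 8.34, 8.22 and 8.70. In Day-0 dog 2 they read 3.69, 4.49 and 1.57, the widest spread of any dog in FOS. All 3 arrays of Day-0 dog 2 and all 3 of Day-3 dog 1 lay under the filter level of 4.51, as did 1 array each of Week-1 dogs 2 and 3. These 8 arrays read FOS in the dim range, where a difference of log2 signal is least certain. Detection calls were not used here. No array of JUNB, IER2 or DUSP1 lay under that level. With FOS held at the filter level on the 8 arrays, the Week-2 minus Day-0 difference was 3.75 (limma adjusted p = 0.197), an alternative chosen after the data were seen.

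JUNB, the other AP-1 subunit, was nearly level in 4 groups. It had 7.63, 7.46 and 8.09 in Day-0 dogs, 7.73, 8.19 and 8.05 in Day-3 dogs and 7.86, 7.97 and 7.91 in Week-1 dogs. The Week-2 dogs had 10.25, 8.28 and 8.63, and the End-stage dogs 8.04, 7.84 and 8.33. Week-2 dog 1 stood apart from every other dog. Its arrays of JUNB all lay above 10, while no array of another dog reached 9. The other Week-2 dogs were above all Day-0 dogs, but Week-2 dog 2 was below End-stage dog 3.

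IER2 had 8.58, 7.03 and 8.46 in Day-0 dogs and 8.18, 9.13 and 8.25 in Day-3 dogs. It had 8.35, 8.27 and 8.81 in Week-1 dogs, 10.44, 8.98 and 9.93 in Week-2 dogs and 8.20, 8.78 and 9.07 in End-stage dogs. Week-2 dogs 1 and 3 were again the 2 highest of the 15 and Day-0 dog 2 was the lowest. Week-2 dog 2 was above all Day-0 dogs and below Day-3 dog 2 and End-stage dog 3.

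DUSP1, the MAP kinase phosphatase, had 9.46, 9.70 and 10.09 in Day-0 dogs and 8.69, 9.44 and 10.13 in Day-3 dogs. It had 10.04, 10.11 and 9.31 in Week-1 dogs, 11.03, 10.27 and 11.23 in Week-2 dogs and 10.28, 10.12 and 10.86 in End-stage dogs. Every Week-2 dog and every End-stage dog was above every Day-0 dog. The lowest of the 15 was Day-3 dog 1, which was also the second lowest in FOS.

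**Figure D1:**
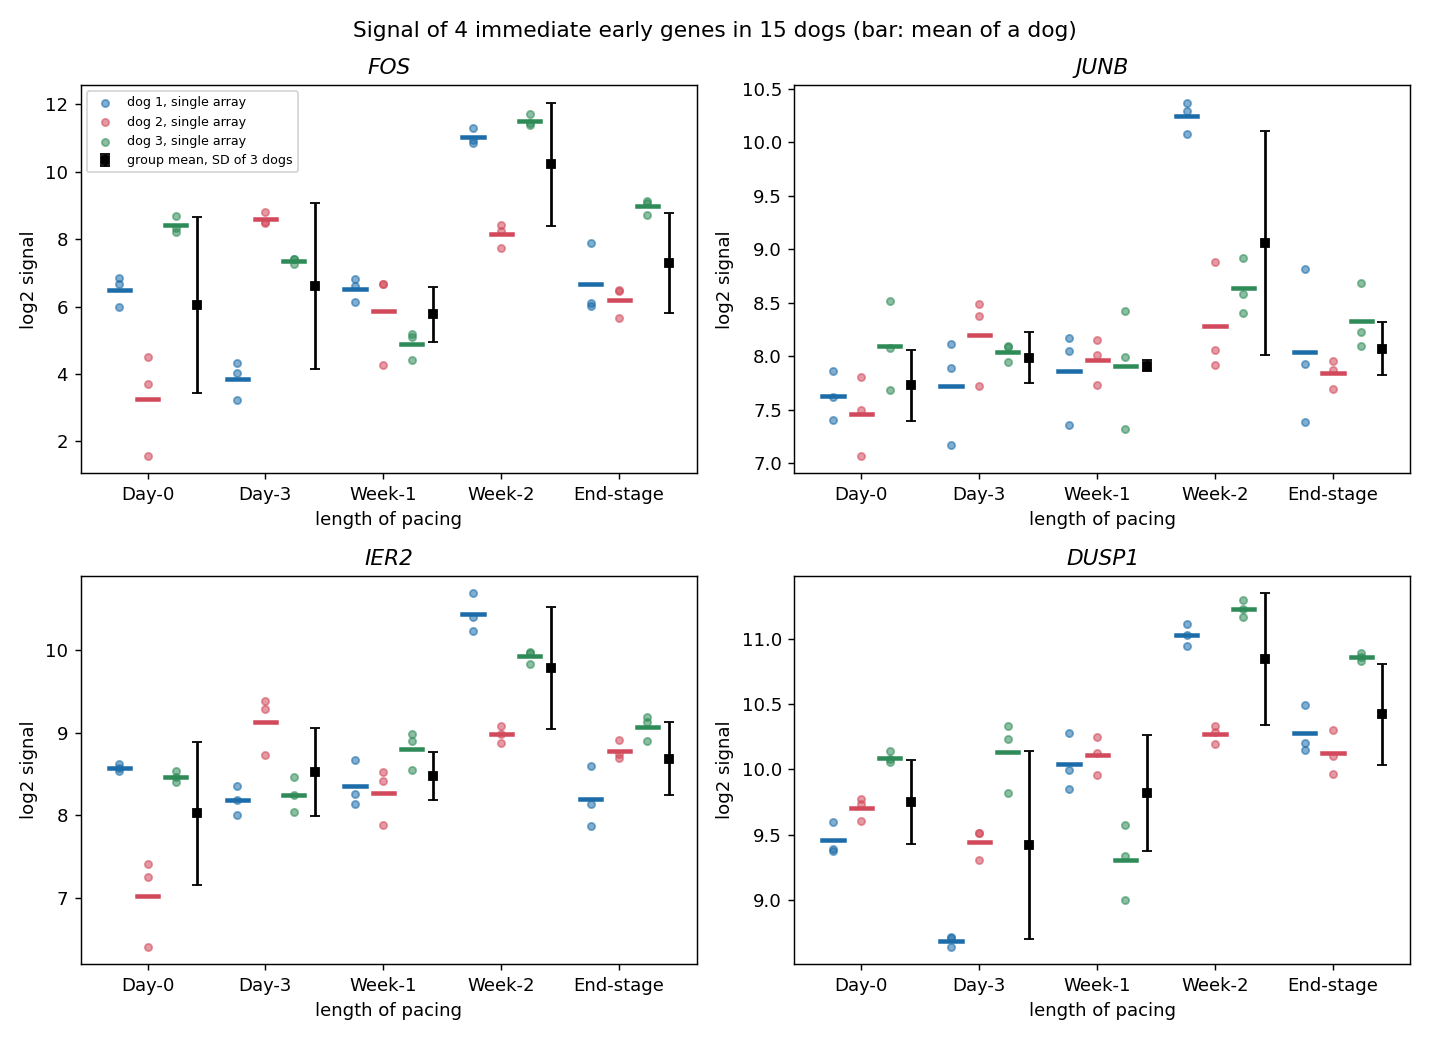
Log2 signal of FOS, JUNB, IER2 and DUSP1 by length of pacing, with 1 point per array, a coloured bar at the mean of each dog and a black square at the group mean with the SD of 3 dogs. Each panel has its own axis. Week-2 dogs 1 and 3 are the highest 2 in FOS, IER2 and DUSP1, and in JUNB Week-2 dog 1 stands alone at 10.25.

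Group means of FOS were 6.06 ± 2.61 in Day-0, 6.61 ± 2.46 in Day-3, 5.76 ± 0.82 in Week-1, 10.23 ± 1.82 in Week-2 and 7.28 ± 1.49 in End-stage (SD, n = 3 dogs each). JUNB averaged 7.73 ± 0.33, 7.99 ± 0.24, 7.91 ± 0.06, 9.06 ± 1.05 and 8.07 ± 0.25 in the same order of groups. IER2 averaged 8.02 ± 0.87, 8.52 ± 0.53, 8.48 ± 0.29, 9.78 ± 0.74 and 8.69 ± 0.44. DUSP1 averaged 9.75 ± 0.32, 9.42 ± 0.72, 9.82 ± 0.44, 10.84 ± 0.50 and 10.42 ± 0.39. From low to high, FOS ran Week-1, Day-0, Day-3, End-stage and Week-2, while JUNB and IER2 ran Day-0, Week-1, Day-3, End-stage and Week-2. In these 3 genes the dogs of every pair of neighbours in the order overlapped. DUSP1 ran Day-3, Day-0, Week-1, End-stage and Week-2, and only its End-stage and Week-1 dogs were neighbours without overlap.

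The comparison of 2 weeks of pacing with none asks which transcripts differ at this stage of ventricular dysfunction. FOS differed by 4.17 (SE 1.32, 95% interval 1.35 to 7.0), with limma adjusted p = 0.227 over all 14302 probe sets. The dogs overlapped, since Week-2 dog 2 at 8.14 was below Day-0 dog 3 at 8.42. JUNB differed by 1.33 (SE 0.36, 95% interval 0.56 to 2.09), with limma adjusted p = 0.143. IER2 differed by 1.76 (SE 0.42, 95% interval 0.86 to 2.66), with limma adjusted p = 0.102. DUSP1 differed by 1.09 (SE 0.34, 95% interval 0.36 to 1.83), with limma adjusted p = 0.221. In JUNB, IER2 and DUSP1 all 3 Week-2 dogs were above all 3 Day-0 dogs. The SE rests on a spread shared by the 5 groups, although the SD of JUNB was 1.05 in Week-2 and 0.33 in Day-0 dogs. In a fit to these 2 groups alone, limma adjusted p was 0.215 for FOS, 0.27 for JUNB, 0.157 for IER2 and 0.123 for DUSP1.

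Thus 0 of the 4 genes were called by limma in Week-2 against Day-0, where 0.042% of all probe sets were called higher and 0.042% lower. At an unadjusted limma p under 0.05, 4 of 4 were higher, against 5.03% of all probe sets. Dogs did not overlap in 3 of 4, against 8.08% of all probe sets. The median difference of the 4 genes was 1.54, beside -0.01 over all probe sets. The 4 genes were chosen with earlier results of these data known. They were also read in the same dogs and are not separate evidence. Their counts, here and in the comparisons below, are a description.

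The difference depended on single dogs. Without Day-0 dog 2, that of FOS was 2.77 and that of IER2 was 1.26. Without Day-0 dog 3, that of FOS was 5.35. Without Week-2 dog 1, that of JUNB was 0.73, and without Week-2 dog 3, that of DUSP1 was 0.90. Over all fits that left out 1 dog, limma adjusted p values of the 4 genes in this comparison lay between 0.138 and 0.575. The sign did not turn in any of them.

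Treating all 45 arrays as observations, with the dog as a random block, gave calls for all 4 genes in Week-2 against Day-0. The limma adjusted p was 0.00125 for FOS, 0.00553 for JUNB, 6.92e-05 for IER2 and 0.000824 for DUSP1. That fit uses 1 correlation between arrays of a dog for all probe sets. The share of the within-group variance that lay between dogs was 89.1% for FOS, 91.1% for DUSP1, 84.1% for IER2 and 57.9% for JUNB, against a median of 27.7% over all probe sets. The fit on dog means is the one used in the rest of the text. It starts from the spread of each gene between dogs and draws it toward that of probe sets of like level. For these 4 genes the SE is therefore smaller than their own spread alone would give.

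**Figure D2:**
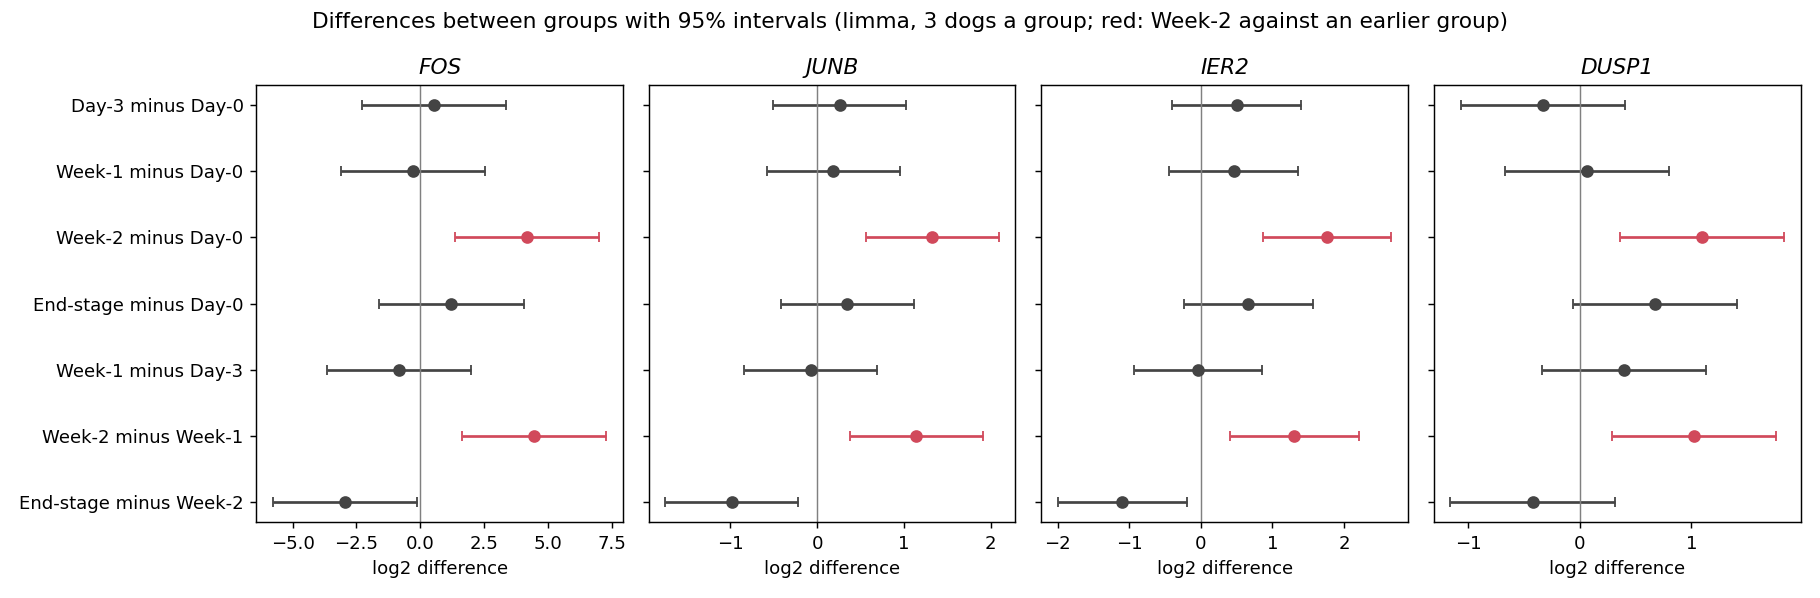
Log2 difference between groups with its 95% interval from limma, 3 dogs a group, for FOS, JUNB, IER2 and DUSP1, with comparisons down the page. Each panel has its own axis. The intervals of Week-2 minus Day-0 and Week-2 minus Week-1, in red, lie above 0 in all 4 genes before adjustment, and those of Day-3, Week-1 and End-stage minus Day-0 include 0. All intervals rest on a spread shared by the 5 groups.

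After 3 days of pacing the differences of the 4 genes from Day-0 were within the spread between dogs. The Day-3 minus Day-0 difference was 0.55 in FOS, 0.26 in JUNB, 0.50 in IER2 and -0.33 in DUSP1, with limma adjusted p between 0.872 and 0.968. The 95% interval for FOS ran from -2.28 to 3.37, so that these dogs set only wide limits on it. Within the Day-3 group, FOS was 8.60 in dog 2 and 3.86 in dog 1. Here 0 of 4 genes were called, against 0% of all probe sets in either direction, and at an unadjusted p 0 of 4 were higher, against 3.72%.

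After 1 week the differences from Day-0 were -0.29 in FOS, 0.19 in JUNB, 0.46 in IER2 and 0.07 in DUSP1, with limma adjusted p between 0.831 and 0.982. Without Week-1 dog 1, whose arrays did not keep to it, and End-stage dog 1 the differences were -0.67, 0.21, 0.52 and -0.04, so the sign of DUSP1 turned. Limma called 0 of 4 genes, against 0.021% of all probe sets higher and 0.00699% lower. At an unadjusted p it was also 0 of 4, against 3.9% of all probe sets higher. Week-1 minus Day-3 differences were -0.84 in FOS, -0.08 in JUNB, -0.04 in IER2 and 0.40 in DUSP1. Without the 2 doubted dogs they were -1.22, -0.05, 0.02 and 0.29, so the sign of IER2 turned. None of the 4 was called there, nor was any other probe set (0% in each direction).

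Week-2 dogs were above Week-1 dogs without overlap in all 4 genes. FOS differed by 4.47 (SE 1.32), a 22.1-fold difference, with limma adjusted p = 0.76. JUNB differed by 1.14 (SE 0.36), or 2.21-fold, with limma adjusted p = 0.768, and IER2 by 1.31 (SE 0.42), or 2.47-fold, with limma adjusted p = 0.782. DUSP1 differed by 1.02 (SE 0.34), or 2.03-fold, with limma adjusted p = 0.823. In this comparison 0% of all probe sets were called in either direction and 6.01% had Week-2 dogs above Week-1 dogs without overlap. At an unadjusted limma p under 0.05, 4 of 4 were higher, against 3.12% of all probe sets. Without Week-1 dog 1 and End-stage dog 1 the 4 differences were 4.84, 1.11, 1.24 and 1.13. Without Week-2 dog 1 the difference of JUNB was 0.55. The 2 comparisons above share the Week-2 dogs, so their values are not separate evidence.

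In End-stage dogs, FOS, JUNB and IER2 were lower on average than in Week-2 dogs, with overlap of the groups in all 4 genes. The End-stage minus Week-2 difference was -2.95 in FOS, -0.98 in JUNB, -1.10 in IER2 and -0.42 in DUSP1, with limma adjusted p = 0.999 for each. Limma called 0 of 4 genes and 0% of all probe sets. At an unadjusted p, 3 of 4 were lower (FOS, JUNB and IER2), against 2.3% of all probe sets. Without the 2 doubted dogs the differences were -2.64, -0.97, -0.86 and -0.35. Without Week-2 dog 1 that of JUNB was -0.39, and DUSP1 ran from -0.71 without Week-2 dog 2 to -0.23 without Week-2 dog 3. The dog numbers appeared to pair these 2 groups, though only by weak correlations (lowest r 0.102). Each End-stage dog was below the Week-2 dog of its number in all 4 genes, as in 15.5% of all probe sets. By dog number, the FOS differences were -4.37, -1.93 and -2.53 and those of DUSP1 were -0.75, -0.15 and -0.37. For JUNB they were -2.21, -0.44 and -0.30, and for IER2 -2.24, -0.20 and -0.86. With the number as a block, limma adjusted p was between 0.859 and 0.871.

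Against Day-0, End-stage dogs differed by 1.23 (SE 1.32) in FOS, 0.34 in JUNB, 0.66 in IER2 and 0.67 (SE 0.34) in DUSP1. The limma adjusted p of DUSP1 was 0.661, although its 3 End-stage dogs were above all 3 Day-0 dogs, as in 6.33% of all probe sets. Limma called 0 of 4, against 0% of all probe sets higher and 0.014% lower. Without Week-1 dog 1 and End-stage dog 1 the differences were 1.54, 0.36, 0.91 and 0.74. At an unadjusted p, 0 of 4 were higher, against 3.7% of all probe sets. Values rested on single dogs. That of FOS was -0.18 without Day-0 dog 2 and 2.41 without Day-0 dog 3, and that of IER2 was 0.17 without Day-0 dog 2.

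The mean of the 4 paced groups differed from Day-0 by 1.41 (SE 1.05) in FOS, 0.53 in JUNB, 0.85 (SE 0.33) in IER2 and 0.38 in DUSP1. Limma called 0 of 4, against 0.14% of all probe sets higher and 0.161% lower, and the lowest adjusted p was 0.315 in IER2. At an unadjusted p, 1 of 4 was higher (IER2), against 5.37% of all probe sets. Without Day-0 dog 2 the difference of FOS was 0.01 and that of IER2 was 0.35, and without Day-0 dog 3 that of FOS was 2.60. Without the 2 doubted dogs the 4 differences were 1.396, 0.54, 0.92 and 0.37. An exact two-sided permutation test over all 455 splits of the 15 dogs into 12 and 3 gave p = 0.108 for IER2, 0.211 for JUNB, 0.374 for FOS and 0.422 for DUSP1. Adjusted over the 4 genes, each was 0.422, and the smallest p this design allows is 0.0022. Without the doubted dogs the exact permutation p of IER2 was 0.0874, and the adjusted values of the 4 genes were 0.35 to 0.465. Of the 12 paced dogs, 4 were above all Day-0 dogs in FOS, 5 in JUNB, 7 in IER2 and 8 in DUSP1. The like counts over all probe sets were not taken, so these are a description and no sign of a rise.

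The mean of the Week-2 and End-stage groups minus that of the Day-3 and Week-1 groups was 2.57 (SE 0.94) in FOS, 0.61 in JUNB, 0.74 in IER2 and 1.01 (SE 0.24) in DUSP1. The unadjusted p of DUSP1, 0.000876, was the 12th smallest of 14302, and the limma adjusted p was 1 for all 4 genes. Here 0% of all probe sets were called. At an unadjusted limma p, 4 of 4 were higher, against 2.15% of all probe sets. Without Week-2 dog 1 the value of JUNB was 0.31. Without the 2 doubted dogs the 4 values were 2.92, 0.61, 0.83 and 1.10. The F test for any difference among the 5 groups gave limma adjusted p values of 0.596 for FOS, 0.524 for JUNB, 0.455 for IER2 and 0.404 for DUSP1. It called 0% of all probe sets, and its unadjusted p was under 0.05 in 4 of 4 genes, against 7.37% of all probe sets. Without the doubted dogs the F test called 0 of the 4 genes.

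FOS varied more between dogs of a group than nearly all other transcripts. Dog means of FOS within a group had an SD of 1.95, the 6th largest of 14302 probe sets, while the median over all was 0.27. The SD was 0.61 for IER2, 0.51 for JUNB and 0.49 for DUSP1, which ranked 827th, 1606th and 1843rd. With dim readings held at the filter level, the SD of FOS was 1.70, the 4th largest, and without the 2 doubted dogs it was 2.14, the 5th largest. Taken apart by the nested design, FOS had an SD of 1.92 between dogs and of 0.67 between isolations. For DUSP1 these were 0.49 and 0.15, for IER2 0.59 and 0.26, and for JUNB 0.46 and 0.39. Over all probe sets the order was the other way round, with medians of 0.17 between dogs and 0.31 between isolations. In all 4 genes the dogs thus differed more than the isolations of 1 dog did, and in JUNB by the least.

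**Figure D3:**
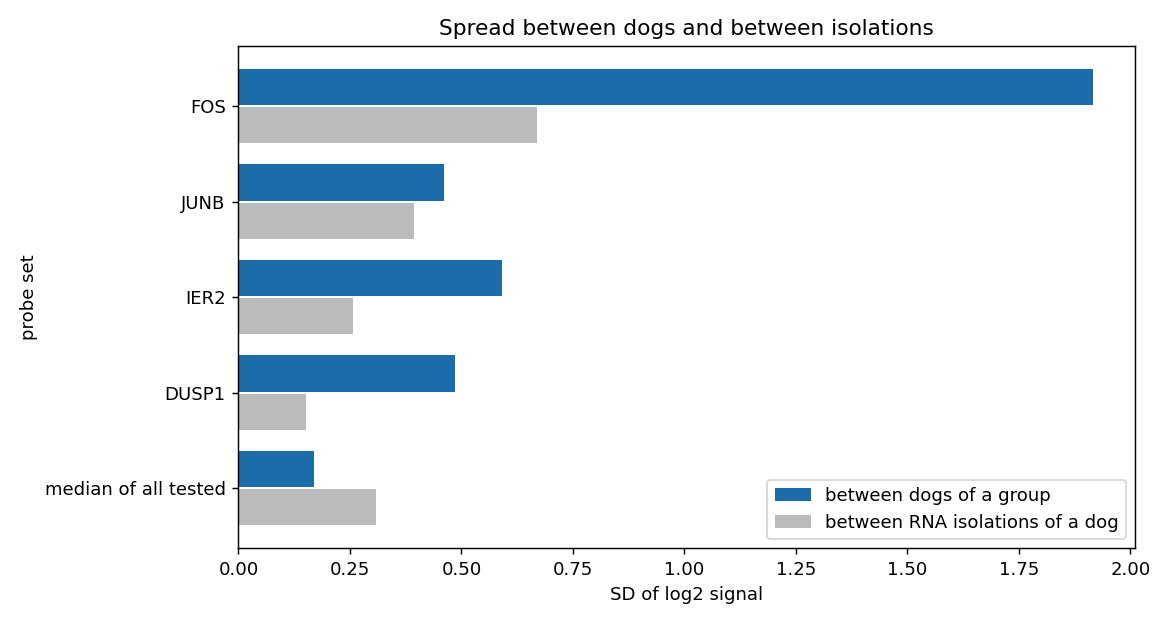
SD of log2 signal between dogs of a group (blue) and between RNA isolations of a dog (grey) for FOS, JUNB, IER2 and DUSP1 and, at the bottom, the median over all 14302 tested probe sets. In FOS the bars are 1.92 and 0.67, and at the bottom 0.17 and 0.31.

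The 4 genes tended to be high and low in the same dogs. With each gene centred on its own mean and the 4 averaged, Week-2 dog 1 was highest at 2.17, followed by Week-2 dog 3 at 1.80. The genes were not scaled, so FOS had most weight, with a range over dogs of 8.26 against 2.54 to 3.42 in the others. End-stage dog 3 came next at 0.79, then Week-2 dog 2 at 0.40. Day-3 dog 2 followed at 0.32 and the unpaced Day-0 dog 3 at 0.25, the latter with 2 of the 4 genes above their own mean. The lowest were Day-0 dog 2 at -1.66 and Day-3 dog 1 at -1.41. Dogs of the Day-0, Day-3 and End-stage groups thus fell on both sides of the mean. Week-2 dog 1 also had the highest actin 3-prime over 5-prime ratio of the 15 dogs, at 0.267, and Day-0 dog 2 the lowest, at 0.121, while Week-2 dog 3 had 0.175. The GAPDH ratio ran the other way, at 0.891 in Week-2 dog 1 and 0.981 in Day-0 dog 2. In Week-2 dog 3 it was 0.961. The part of RNA quality in the levels of the 4 genes was not tested.

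Over the 15 dogs, 6 pairs of genes were correlated, with permutation p values adjusted over the 6. Pearson's r of FOS was 0.77 with JUNB (adjusted permutation p = 0.00012), 0.855 with IER2 (0.00014) and 0.79 with DUSP1 (0.00087). It was 0.837 between JUNB and IER2 (0.00012), 0.654 between JUNB and DUSP1 (0.00757) and 0.58 between IER2 and DUSP1 (0.0237). Spearman's rho was 0.914 for FOS and JUNB, 0.746 for FOS and IER2 and 0.696 for FOS and DUSP1. It was 0.736 for JUNB and IER2, 0.714 for JUNB and DUSP1 and 0.418 for IER2 and DUSP1. The adjusted permutation p of rho was 0.121 for the last pair and at most 0.00587 for the others. The raw permutation p of r was 3e-05, 7e-05 and 0.00058 for FOS with JUNB, IER2 and DUSP1, and 4e-05, 0.00631 and 0.0237 for the other pairs in the order above.

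In every pair but FOS and JUNB, r was lower without the 3 Week-2 dogs. Without the 2 dogs farthest from the median of the first gene of a pair, r was 0.856, 0.715 and 0.613 for FOS with JUNB, IER2 and DUSP1. It was 0.729 for JUNB and IER2, 0.573 for JUNB and DUSP1 and 0.518 for IER2 and DUSP1. Leaving out all 3 Week-2 dogs was a choice made after the data were seen. Over the 12 dogs left, r was 0.848 for FOS and JUNB (adjusted permutation p = 0.00252). It was 0.692 for FOS and IER2 (adjusted permutation p = 0.0219) and 0.701 for JUNB and IER2 (0.0219). It was 0.591 for FOS and DUSP1 (adjusted permutation p = 0.0632), 0.545 for JUNB and DUSP1 (0.0784) and 0.144 for IER2 and DUSP1 (0.639). On deviations from the group means, where only dogs of 1 group are set against each other, r ran from 0.229 for IER2 and DUSP1 to 0.745 for FOS and IER2. The adjusted exact permutation p of these deviations lay between 0.0826 and 0.464, so none passed over the 15 dogs. Without the 3 Week-2 dogs, r of the deviations of FOS and JUNB was 0.902, with an adjusted exact permutation p of 0.037, and the other pairs did not pass. Without the 2 doubted dogs, r over 13 dogs ran from 0.614 for IER2 and DUSP1 to 0.859 for FOS and IER2, and no deviations passed. In each dog the 4 levels come from the same arrays.

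**Figure D4:**
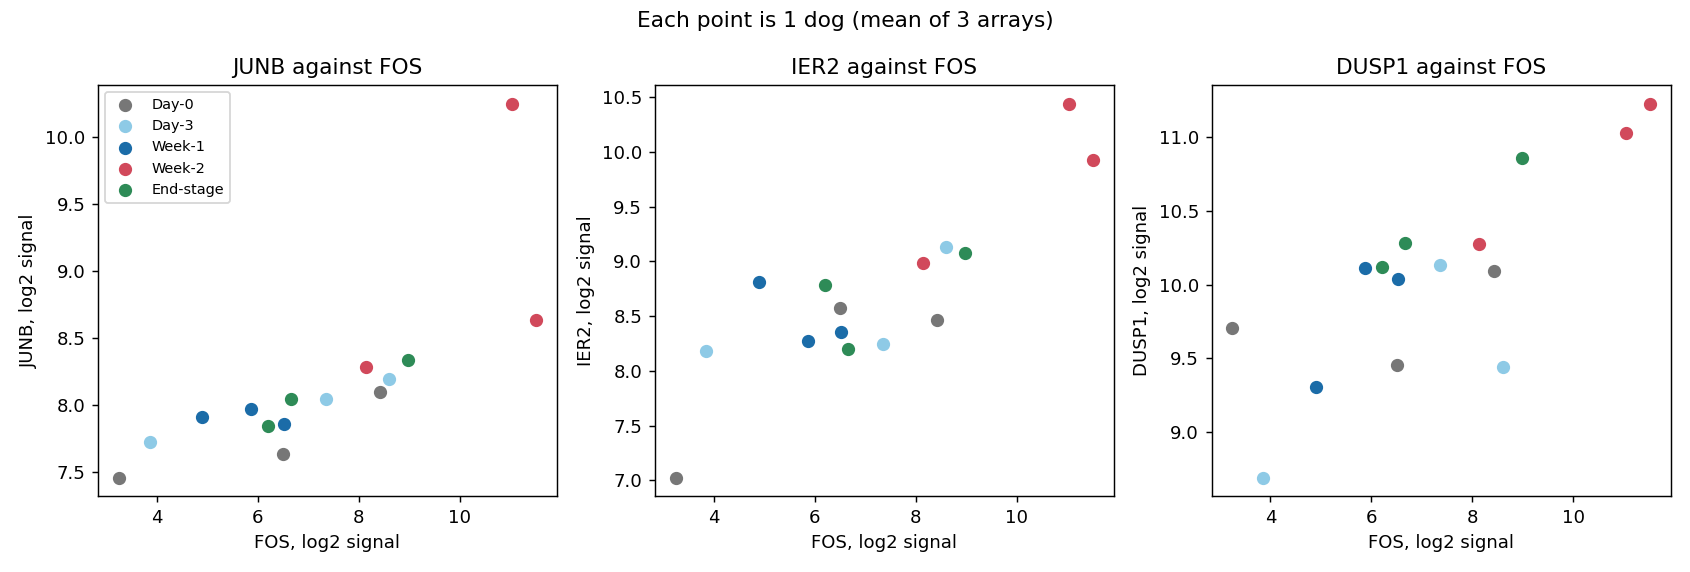
Log2 signal of JUNB, IER2 and DUSP1 against that of FOS, with 1 point for each of the 15 dogs coloured by group. Pearson's r is 0.77, 0.855 and 0.79 from left to right, and 2 of the 3 Week-2 dogs, in red, lie at the top right of each panel, with JUNB of Week-2 dog 3 below that of dog 1.

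Of 5274 other genes with a single symbol, each as its brightest probe set, the one most like the mean of the 4 over the 15 dogs was NR4A1, with Pearson's r of 0.808. It is a nuclear receptor that is itself an immediate early gene. KLF4, a transcription factor of the same class, came second at 0.785. FLOT1, which encodes a membrane scaffold protein, followed at 0.778, DNAI4, an axonemal dynein gene, at 0.74 and ELN, which encodes elastin, at 0.731. SPCS3, SLC2A3 and ISG20L2 had r of 0.725, 0.716 and 0.714. The median r over all 5274 genes was -0.02, and 1 gene was above 0.8. FOS had most weight in the mean of the 4, as the genes were not scaled.

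NR4A1 had 7.10, 7.45 and 8.22 in Day-0 dogs and 6.39, 8.85 and 7.48 in Day-3 dogs. It had 6.96, 6.84 and 7.08 in Week-1 dogs, 9.67, 6.49 and 10.30 in Week-2 dogs and 7.20, 6.91 and 8.53 in End-stage dogs. Week-2 dogs 1 and 3 were the highest of the 15, while Week-2 dog 2 was the second lowest. Its Week-2 minus Day-0 difference was therefore 1.23 with an SE of 0.79 (limma adjusted p = 0.622). The same dogs stood out in KLF4, at 7.97 and 7.88 in Week-2 dogs 1 and 3, against 7.05 to 7.40 in Day-0 dogs. Its Week-2 minus Day-0 difference was 0.45 (SE 0.29, limma adjusted p = 0.62).

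None of 10 other AP-1 subunits, such as further FOS and JUN family genes, was named singly by the array annotation. Of 16 other immediate early transcription factors, 3 were tested, NR4A1, NR4A2 and KLF4, and 0 were called in any comparison. Their median Week-2 minus Day-0 difference was 0.50, beside -0.01 over all probe sets. NR4A2, a nuclear receptor related to NR4A1, differed by 0.50 (SE 0.45).

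Of 21 other immediate early genes that encode regulators and secreted proteins, 8 were tested. All 8 had a Week-2 minus Day-0 difference above 0, and 0 of 8 were called there. Their median difference was 0.64, beside -0.01 over all probe sets. The 8 genes were read in the same dogs, so they are not separate evidence. This list, too, was chosen with earlier results of these data known, and its counts are a description. In the mean of the paced groups 1 of 8 was called higher, against 0.14% of all probe sets. TRIB1, a pseudokinase that helps to degrade transcription factors, was higher there by 1.41 (SE 0.24, 2.65-fold, limma adjusted p = 0.0381). It had 8.19, 7.87 and 7.93 in Day-0 dogs, 8.50, 10.01 and 8.83 in Day-3 dogs and 9.40, 9.64 and 9.54 in Week-1 dogs. Week-2 dogs had 9.38, 9.68 and 9.98 and End-stage dogs 9.75, 9.03 and 9.09, so that every paced dog was above every Day-0 dog. Week-2 minus Week-1 was 0.15 (SE 0.30) in TRIB1, against 4.47 in FOS and 1.14 in JUNB. Whether these differences between genes exceed the spread was not tested. CCN1, a secreted matrix-associated protein, had a Week-2 minus Day-0 difference of 1.69 (SE 0.52, limma adjusted p = 0.202). Week-2 dog 3 held it at 9.99, above every other dog. MCL1, which protects cells from apoptosis, differed by 0.72 (SE 0.18, limma adjusted p = 0.115), and SGK1 by 0.56 (SE 0.33, limma adjusted p = 0.579).

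**Figure D5:**
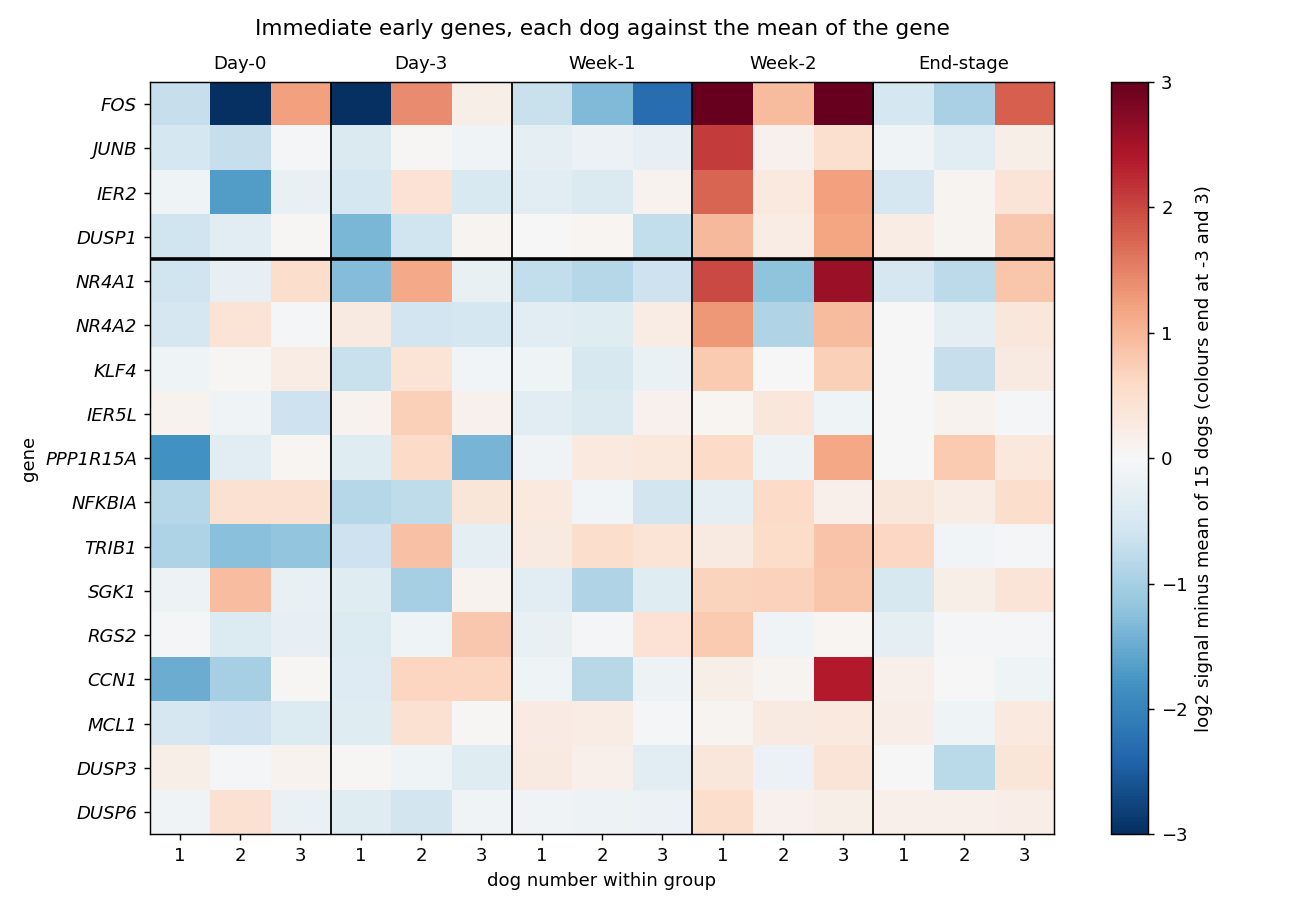
Log2 signal of each dog minus the mean of 15 dogs for the 4 genes (top) and 13 other immediate early or dual specificity phosphatase genes that were tested, with dogs in groups from Day-0 to End-stage. Colours end at -3 and 3. FOS, JUNB, IER2, DUSP1, NR4A1 and KLF4 are all above their mean in Week-2 dogs 1 and 3, and TRIB1 is below its mean in all 3 Day-0 dogs.

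Of 10 other dual specificity phosphatases, the family of DUSP1, 2 were tested and 0 called. DUSP6, which acts on ERK, differed by 0.22 (SE 0.17, limma adjusted p = 0.69) between Week-2 and Day-0, and DUSP3 by 0.11. Of 30 kinases and factors that act upstream of immediate early genes, such as MAP kinases and serum response factor, 10 were tested, with a median difference of 0.05 and 0 called. MAPK8, a JNK kinase, differed by 0.58 (SE 0.20, limma adjusted p = 0.303). Transcript levels of kinases do not measure their activity.

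Of 20 genes known as targets of AP-1 or serum response factor, 8 were tested and 2 were called higher in Week-2 than in Day-0, against 0.042% of all probe sets. The list was chosen with earlier results of these data known, so its counts of calls are a description and no support for a response of such targets. THBS1, a secreted matrix glycoprotein, rose by 1.78 (SE 0.23, 3.43-fold, limma adjusted p = 0.0101). CCL2, which encodes a monocyte-attracting chemokine, rose by 1.60 (SE 0.23, 3.04-fold, limma adjusted p = 0.0177). In the mean of the paced groups both were also called higher, against 0.14% of all probe sets, THBS1 by 1.17 (limma adjusted p = 0.0185) and CCL2 by 1.06 (0.0415). Their levels differed little among the 3 Week-2 dogs, but a limma call favours genes with little spread within groups. This evenness thus follows in part from how the 2 genes were picked. THBS1 had 10.27, 10.13 and 10.21 in Week-2 dogs, and 8.14, 8.79 and 8.34 in Day-0 dogs. CCL2 had 7.60, 7.58 and 7.69 in Week-2 dogs, and 6.26, 5.97 and 5.82 in Day-0 dogs. Among the same 3 Week-2 dogs FOS, which was not called, differed 10.3-fold, JUNB 3.90-fold, IER2 2.75-fold and DUSP1 1.94-fold. CCN2, another secreted matrix protein of the list, differed by 2.30 (SE 0.51, limma adjusted p = 0.0959). It had 10.65, 11.48 and 12.30 in Week-2 dogs, while TIMP1, also of the list and not called, had 8.04, 8.11 and 8.02. The median of the 8 was 0.51.

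Of 16 heat shock chaperones and factors, known for their response to protein damage, 13 were tested. Their median Week-2 minus Day-0 difference was 0.13 and 0 were called.

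The tissue label was checked on 11 tested ventricular cardiomyocyte markers, whose mean level was 12.67 to 13.19 in Week-2 dogs and 12.78 to 13.33 in Day-0 dogs. Their summed signal was 77728 to 113579 in Week-2 dogs and 82032 to 121992 in Day-0 dogs, and 0 of 11 were called. The median difference of that list was -0.13, beside -0.01 over all probe sets, and 0 of 11 had a difference above 0. RYR2 differed most, by -0.67 (SE 0.14, limma adjusted p = 0.0796). For 3 atrial markers the sum was 1563 to 3856 in Week-2 dogs and 3228 to 3985 in Day-0 dogs. For 11 macrophage and leukocyte markers the sum was 995 to 1168 in Week-2 dogs and 880 to 1173 in Day-0 dogs. For 7 endothelial markers it was 6404 to 6978 in Week-2 dogs and 5998 to 6966 in Day-0 dogs. For 6 fibroblast markers it was 8038 to 10515 in Week-2 dogs and 7795 to 11024 in Day-0 dogs. For 6 smooth muscle and pericyte markers it was 12047 to 15317 in Week-2 dogs and 13793 to 16151 in Day-0 dogs. Ranges of Week-2 and Day-0 dogs overlapped in each of these lists, 0 of their genes were called in this comparison, and no marker had a signal of 0. Against Week-1 dogs, where the endothelial sum was 5425 to 5666, the Week-2 dogs were higher without overlap. All 7 endothelial markers had a Week-2 minus Week-1 difference above 0, with a median of 0.18 beside 0.02 over all probe sets, and 0 were called. The other lists overlapped between these 2 groups. Red blood cell markers were not named singly on the array and were not analysed here. The part of cell composition in the differences of the 4 genes was not tested.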

How the data were processed

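Per the submitters' processing notes, the arrays were processed in GCOS 1.4 with MAS5. The deposited table holds linear signal intensity for 23913 probe sets on 45 arrays. The authors' scaling was checked on the values, and the mean without the lowest and highest 2% was 150.02 to 150.026 on every array. Precision is limited by the number of dogs, as arrays have no read depth. Control probe sets (77) were left out. Probe sets were named from the array annotation and placed by the RefSeq gene table of UU_Cfam_GSD_1.0.

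The mean log2 signal of its 3 arrays stood for each dog. A model with 1 mean per group was fitted to 15 dogs and 14302 probe sets with lmFit of limma 3.58.1 (R 4.3.3), followed by eBayes with trend. The p values, two-sided, were adjusted by Benjamini-Hochberg over all tested probe sets, with a threshold of 0.05. The code was tested on simulated data. Correlations used 100000 resamples (scipy 1.17.1), and deviations all 7776 orders within groups. With 3 dogs against 3, no exact permutation test can give p below 0.1. The labels name separate dogs as biological replicates.

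The 4 genes and all gene lists were chosen with earlier results of these data known. Named were the 4 genes, list members called in any comparison, from each list at most 4 genes by smallest F test p, and the 8 genes most like the mean of the 4, with the 4 most like it on deviations from group means. Deviations of dogs from their group means were correlated over probe sets between dogs of the same number. Every pair was above 0.1 between Week-1 and Day-3 (lowest r 0.167), between End-stage and Week-2 (lowest r 0.102) and between Week-2 and Day-3 (lowest r 0.101), the last not compared here. The number was taken as a pairing there, on the data alone. These correlations are weak, and none between dogs of different numbers is given beside them. A difference by number was not limited to those groups. Dog 1 had the lowest mean level of the ventricular cardiomyocyte markers in all 5 groups, at 12.78 in Day-0 and 12.67 in Week-2.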

Additional observations from a re-analysis of the deposited data

How the results depend on the processing

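Of 232 counts of called members recomputed under other settings or without 1 dog, 227 stayed at 0. The 5 others came from the fit to the 45 single arrays, in which dog was a random block. It called 4 of the 4 genes in Week-2 against Day-0, 3 in Week-2 against Week-1 (FOS, IER2 and DUSP1), 1 in the paced mean against Day-0 (IER2, limma adjusted p = 0.0139), 2 in late against early pacing (FOS and DUSP1) and 4 for any difference. With the dog number as a replicate block, 0 of the 4 genes were called in any comparison, and the limma adjusted p in Week-2 against Day-0 was 0.153 for FOS, 0.117 for JUNB, 0.0787 for IER2 and 0.146 for DUSP1. Over the settings that kept all dogs or left out both doubted dogs, the Week-2 minus Day-0 difference was 3.59 to 4.43 in FOS, 1.24 to 1.39 in JUNB, 1.68 to 1.85 in IER2 and 1.01 to 1.12 in DUSP1.

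Some signs turned, in differences of at most 1.23 in size. Week-1 minus Day-3 in JUNB became 0.0173 with median centring, 0.0224 without isolation 2 and 0.00915 without isolation 3. In IER2 it became 0.0503 with median centring and 0.0209 without the doubted dogs. Week-1 minus Day-0 in DUSP1 became -0.0416 without the doubted dogs. The cause was not tested.

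Leaving out 1 dog at a time gave these ranges where a sign turned. Day-3 minus Day-0 ran from -0.86 to 1.92 in FOS, from -0.000135 to 0.78 in IER2 and from -0.68 to 0.0363 in DUSP1. Week-1 minus Day-0 ran from -1.70 to 0.89 in FOS, from -0.0424 to 0.73 in IER2 and from -0.0776 to 0.33 in DUSP1. End-stage minus Day-0 in FOS ran from -0.18 to 2.41. Week-1 minus Day-3 ran from -2.22 to 0.15 in FOS, from -0.21 to 0.0277 in JUNB and from -0.21 to 0.26 in IER2. With 3 dogs a group, the 95% interval of a FOS difference between 2 groups spans over 5 log2 units.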

Other observations

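RNA isolation 3 read FOS lowest in 10 of 15 dogs, IER2 in 8, JUNB in 7 and DUSP1 in 6. Its mean deviation from the dog mean was -0.39 in FOS, the 64th lowest of 14302 probe sets, and -0.13 in IER2, -0.11 in JUNB and -0.05 in DUSP1, beside a median of 0.00 over all probe sets. Within isolations 1, 2 and 3 the Week-2 minus Day-0 difference of FOS was 4.16, 3.66 and 4.69, and that of IER2 was 1.77, 1.59 and 1.93. JUNB had 1.31, 1.47 and 1.20 and DUSP1 1.10, 1.08 and 1.10, so the difference was present in each isolation. The isolations are repeats on the same tissue of the same dogs, so this shows only that the reading repeats.

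On deviations from the group means, NR4A1 and KLF4 stayed near the top of the genes most like the mean of the 4, at the 5th rank (Pearson's r 0.802) and the 10th (0.755). The first 4 were other genes, with r of 0.922 for SNHG3, a small nucleolar RNA host gene, 0.841 for DPH2, a gene of diphthamide synthesis, 0.832 for LOC480788 and 0.805 for EFCAB11. SNHG3 had r of 0.08 over the 15 dogs without removal of group means. Its level was 5.45, 5.03 and 5.36 in Week-2 dogs and 6.01, 5.57 and 6.14 in Day-0 dogs, a difference of -0.63 (SE 0.21, limma adjusted p = 0.273). These values are a description, ranked over 5274 genes, with FOS having most weight in the mean of the 4.

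Week-2 dog 2 read lower than the other Week-2 dogs in all 4 genes and in NR4A1. THBS1 and CCL2, which were picked because limma called them, were level among the 3. Week-2 dog 2 held less FOS, at 8.14, than Day-0 dog 3, which was never paced, at 8.42.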
